A study of Procotyla fluviatilis with 12 samples.

Results

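The contigs described here were higher, or lower, after amputation in both body regions of the planarian *Procotyla fluviatilis*, the one that regenerates and the one that does not. They were chosen from the values themselves, in CPM, the reads of a contig scaled to the total of its library. Contigs averaging under 1 CPM across the 12 libraries were left out. In each region the mean CPM of the amputated group had to differ at least 1.5-fold from that of the uncut group, in the same direction. Every amputated library also had to lie beyond every uncut library of its region. Of 149594 contigs, 41058 reached the mean, 7 were higher in both regions (the rising set) and 21 were lower in both (the falling set). Since these values chose the contigs, their amputated and uncut levels are given as a description, with no test.

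Planarians are flatworms that replace lost parts from dividing stem cells called neoblasts. In *Schmidtea mediterranea*, a relative that regenerates from nearly any fragment, a wound first switches on genes whatever part is missing, and later responses depend on what has to be replaced. *P. fluviatilis* is a species in which tissue from the rear of the body does not rebuild a head. The comparison asks which transcripts differ from uncut tissue in the same direction whichever region is cut.

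Adult worms were field collected, held briefly at 18 °C, and the labels name no treatment other than the cut. In the regeneration-proficient region (Reg+) the cut was made anterior to the pharynx, and in the regeneration-deficient region (Reg-) posterior to it. Tissue behind the cut was taken 24 hours later, and uncut worms gave tissue from the matching place. Each of the 4 groups (Reg+ amputated, Reg+ uncut, Reg- amputated, Reg- uncut) had 3 libraries, each made from a pool of 3 worms. Values are listed in the order of the numbers in the titles, which are 1, 3 and 4 in uncut Reg- tissue and 1, 2 and 3 elsewhere. Whether pools stem from different collections of worms is not stated, so the spread given here is that between these pools, and part of it may be technical. In excised tissue fewer cells of a type and less RNA per cell cannot be told apart.

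Library totals ran from 22038256 to 31266924 reads. No pair of libraries of one group matched within sampling noise (chi-square per degree of freedom of 9.68 to 73.1). The highest value was that of Reg- amputated replicates 1 and 3. By the same rule, 1621 contigs changed in opposite directions in the regions, against the 28 that changed in the same direction. An exchange of labels between whole groups and a response that runs in opposite directions cannot be told apart in this design. All directions below hold as labelled.

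The files name contigs of a de novo transcriptome by number only, and gene names, functions and sequences are therefore left out. One gene may be split over several contigs.

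Contigs changed alike were few beside those that passed the rule in each region, whatever they did in the other. In Reg+ tissue, 9.52% of the 41058 contigs passed the rule as higher after amputation and 11% as lower. In Reg- tissue, 3.8% passed as higher and 2.88% as lower. Passing in both as higher were 0.017%, in both as lower 0.0511%, and in opposite directions 3.95%. The 7 rising contigs made up 0.179% of the 3909 contigs higher in Reg+ and 0.448% of the 1562 higher in Reg-. The 21 falling contigs made up 0.464% of the 4528 lower in Reg+ and 1.78% of the 1182 lower in Reg-. Contigs with opposite directions made up 50.7% of those 1182 and 65.4% of the 1562 higher in Reg-. They made up 15.3% of the 3909 higher and 22.6% of the 4528 lower in Reg+.

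If the lists of the regions were independent of each other, 148.7 contigs would be shared as higher and 130.4 as lower, from the product of the list sizes over 41058 contigs. The rising and the falling set were thus both smaller than this product, and contigs are not independent of each other. In opposite directions the order was the other way round. Found higher in Reg+ and lower in Reg- were 599 contigs where the product gives 112.5. Found lower in Reg+ and higher in Reg- were 1022 where it gives 172.3. Without the 1.5-fold minimum, 79 contigs were higher and 216 lower in both regions with no overlap, where the products are 718.9 and 724.7.

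**Figure D1:**
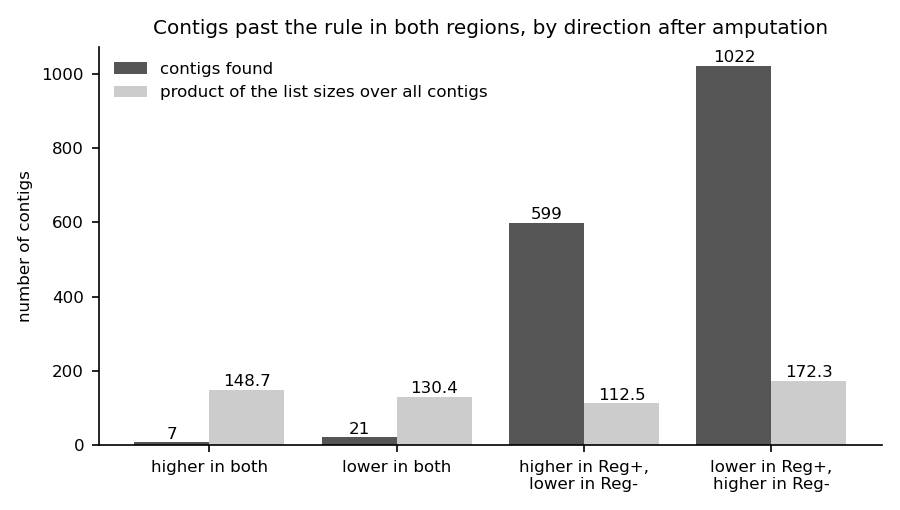
Number of contigs past the rule in both regions by direction after amputation (dark bars), beside the product of the list sizes over all 41058 contigs (pale bars). The 7 contigs higher in both and the 21 lower in both lie below their pale bars, and the 599 and 1022 contigs with opposite directions lie above theirs.

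**Figure D2:**
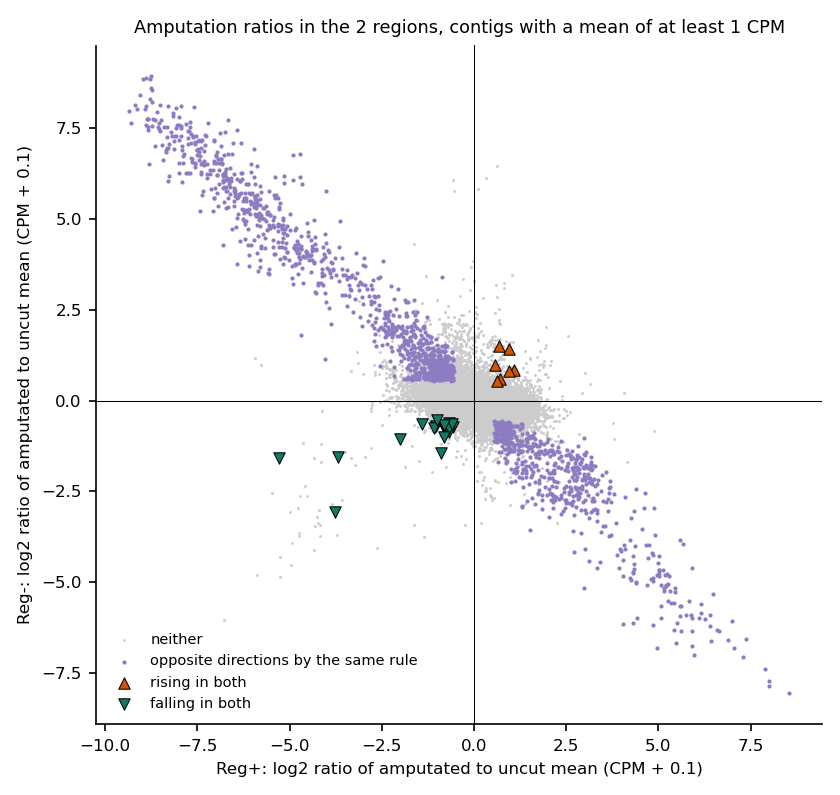
Log2 ratio of amputated to uncut group mean (each mean plus 0.1 CPM) in Reg+ (horizontal) and Reg- tissue (vertical) for the 41058 contigs averaging 1 CPM or more. The 7 rising contigs (upward triangles) and most of the 21 falling contigs (downward triangles) sit close to the centre, while contigs past the rule in opposite directions spread far along the other diagonal.

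Changes alike in both regions were small. The median ratio of amputated to uncut mean was 1.66 in Reg+ and 1.84 in Reg- tissue over the rising set, and 0.556 and 0.587 over the falling set. Over all 41058 contigs the medians were 0.951 and 1.02. Contigs past the rule in opposite directions had medians of 4.41 and 0.272 for those higher in Reg+, and of 0.135 and 7.29 for those lower in Reg+. The direction and the minimum of each of these ratios were set by the choice of contigs.

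The rising set held short, low-abundance contigs. Their length ran from 239 to 1767 nt with a median of 336 nt, against 723 nt over the 41058 contigs. Their mean level ran from 1.07 to 4.52 CPM with a median of 2.47 CPM, against 5.37 CPM. A rising contig had 358 to 1511 reads over all 12 libraries. Of its reads a median of 92.1% were uniquely assigned, against 99.7% over the 41058 contigs, and the lowest share was 81.2% in contig147865.

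In the rising set, contig138307 (1767 nt) had the largest change in its weaker region. Its level was 2.94, 5.05 and 3.82 CPM in Reg+ amputated replicates 1, 2 and 3, against 2.01, 2.01 and 1.95 CPM in Reg+ uncut tissue. In Reg- tissue it stood at 3.85, 7.26 and 2.14 CPM in the amputated and 1.12, 1.78 and 1.88 CPM in the uncut libraries. All 6 amputated libraries lay above all 6 uncut libraries, and Reg- amputated replicate 2 was far above the rest. The group means were 3.94 ± 1.06 and 1.99 ± 0.034 CPM in Reg+ and 4.42 ± 2.61 and 1.59 ± 0.41 CPM in Reg- tissue (SD, n = 3 each), ratios of 1.98 and 2.77. Without Reg- amputated replicate 2 the Reg- ratio was 1.88.

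Levels of contig145068 (242 nt) in Reg+ tissue were 5.66, 4.60 and 6.96 CPM after amputation and 1.72, 3.09 and 3.22 CPM without it. Its Reg- levels were 3.38, 5.43 and 5.09 CPM after amputation and 3.18, 1.48 and 3.00 CPM in uncut tissue (replicates 1, 3 and 4). Again the 6 amputated libraries were all above the 6 uncut ones, but the closest pair in Reg- tissue, 3.38 and 3.18 CPM, rested on 102 and 91 reads. The ratios of means were 2.15 and 1.82. Contig138307 and contig145068 were the only 2 of 7 rising contigs in which all amputated libraries lay above all uncut libraries of both regions. So did 25 of the 79 contigs higher in both regions with no overlap, and 0.0609% of the 41058 contigs. The rule fixed this order within each region.

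By change in the weaker region contig60403 (609 nt) ranked between these. In Reg+ tissue it had 1.89, 2.54 and 2.04 CPM after amputation and 0.621, 0.704 and 1.86 CPM uncut. In Reg- tissue it had 1.79, 1.97 and 1.43 CPM in the amputated and 1.19, 1.11 and 0.522 CPM in the uncut libraries. Reg+ uncut replicate 3 almost reached the lowest amputated library, at 1.86 against 1.89 CPM. The ratios of means were 2.03 and 1.84, and the Reg+ ratio was 3.25 without that library.

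Most alike in their deviations from the group means was a trio of rising contigs. Contig133499 (372 nt) had 2.37, 3.82 and 3.00 CPM after amputation and 1.68, 1.74 and 2.22 CPM uncut in Reg+ tissue. In Reg- tissue it had 2.99, 6.74 and 1.36 CPM after amputation and 1.15, 1.34 and 1.22 CPM uncut. Its Reg- ratio of 2.98 became 1.76 without Reg- amputated replicate 2, and its lowest amputated and highest uncut library there held 42 and 40 reads.

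For contig115571 (336 nt) the Reg+ levels were 1.73, 1.93 and 1.96 CPM amputated and 1.24, 1.11 and 1.36 CPM uncut. The Reg- levels were 2.46, 3.39 and 1.23 CPM amputated and 1.08, 1.18 and 1.18 CPM uncut, with ratios of 1.51 and 2.06. Like contig138307 and contig133499, it was highest in replicate 2 and lowest in replicate 3 of the Reg- amputated libraries. So were contig148537 and contig60403, outside the trio. Deviations from the group means, in log2(CPM + 0.5), correlated at a Pearson r of 0.947 for contig115571 with contig133499, 0.933 for contig133499 with contig138307 and 0.878 for contig115571 with contig138307. Each value compares contigs measured in the same 12 libraries. They are the 3 highest of the 21 pairs in the set, whose median was 0.427. Contig148537 correlated with the trio at 0.681 to 0.702. Whether the trio are pieces of one transcript was not tested.

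The remaining 2 rising contigs had Reg- ratios of means of 1.53 and 1.52, the lowest of the set. Contig147865 (248 nt) stood at 4.41, 6.81 and 5.68 CPM in Reg+ amputated, 3.03, 3.02 and 4.13 CPM in its uncut counterpart, 4.08, 7.37 and 4.96 CPM in Reg- amputated and 3.99, 2.82 and 3.90 CPM in uncut Reg- tissue. The lowest Reg- amputated and highest Reg- uncut library had 123 and 114 reads. Contig148537 (239 nt) stood at 1.44, 1.35 and 1.39 CPM in Reg+ amputated, 1.02, 0.604 and 0.998 CPM in its uncut counterpart, 0.996, 1.71 and 0.907 CPM in Reg- amputated and 0.595, 0.873 and 0.905 CPM in uncut Reg- tissue. Its closest Reg- pair was 0.907 and 0.905 CPM, from 28 and 26 reads.

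**Figure D3:**
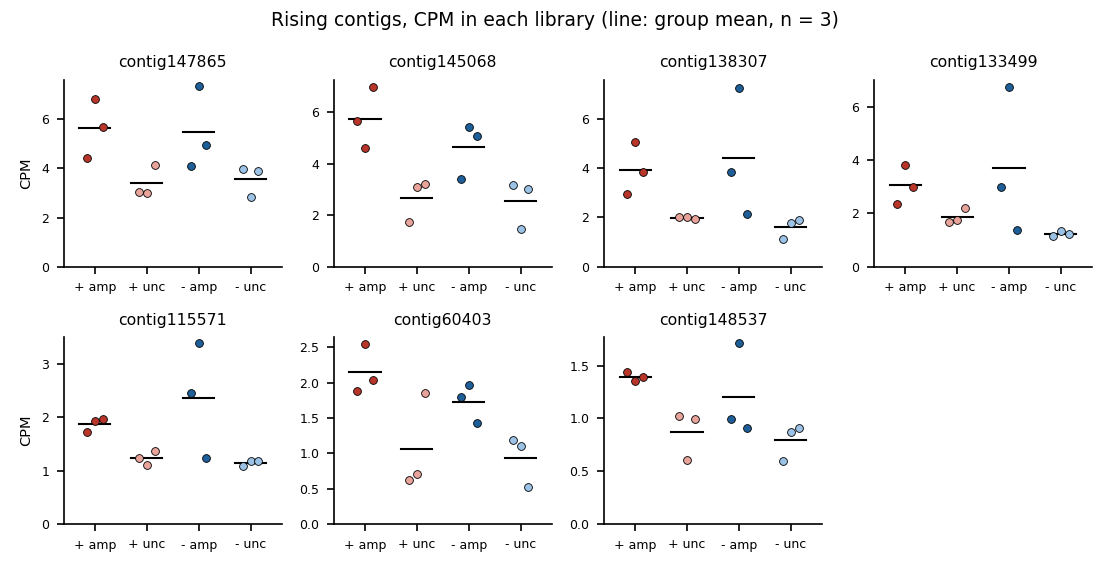
CPM of the 7 rising contigs in each library (points, replicates in order of number) with the group mean (line, n = 3), for Reg+ amputated (+ amp), Reg+ uncut (+ unc), Reg- amputated (- amp) and Reg- uncut (- unc) tissue; each vertical axis starts at 0. In all 7 panels the highest Reg- amputated point is replicate 2, and the lowest amputated point often touches the highest uncut one.

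The rising contigs partly shared the libraries of a group in which they were high or low. Least alike was contig145068, whose deviations correlated with the others at -0.115 (contig138307) to 0.538 (contig147865). Reg- amputated replicate 2 was the highest of its group in 7 of 7 contigs, and Reg- amputated replicate 3 was the lowest in 5. Relative to each contig's own mean over the 12 libraries, the median level was 1.63 in replicate 2, 1.21 in replicate 1 and 0.85 in replicate 3 of Reg- amputated tissue. It was 1.04 to 1.51 in Reg+ amputated, 0.669 to 0.9 in Reg+ uncut and 0.624 to 0.716 in Reg- uncut libraries. In these medians the Reg- amputated replicate 3 value lay below the highest uncut value of the other region.

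Where the groups of the rising set came closest, the counting intervals of the single libraries overlapped. Overlap does not show that the counts differed by counting error alone. For the lowest amputated and the highest uncut library of a region, 95% exact Poisson intervals of the reads overlapped in 7 of 7 contigs in Reg+ and in 7 of 7 in Reg- tissue. The ratio of this closest pair ran from 1.002 to 1.46 over the set. For reads summed over each group, the intervals of the ratio lay above 1 in 7 of 7 contigs in both regions, with the lowest bound at 1.09 in contig148537. Such intervals cover counting error only, and the choice of contigs favoured ratios above 1.

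Just inside the 1.5-fold threshold lay contig115571, with 1.51 in Reg+ tissue, and contig148537, with 1.52 in Reg- tissue. Just outside lay contig57240 (575 nt, mean 1.22 CPM), with ratios of 1.49 and 1.52, and contig175 (1594 nt, mean 71.6 CPM), with ratios of 1.49 in Reg+ and 3.17 in Reg- tissue. The latter was more abundant than any rising contig.

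The falling set was longer and more uniquely read than the rising set, with a lower median level. Its lengths ran from 201 to 1832 nt with a median of 589 nt, against 723 nt over the 41058 contigs. Its mean levels ran from 1.02 to 39.4 CPM with a median of 1.85 CPM, against 5.37 CPM. A median of 99.6% of the reads were uniquely assigned. The lowest share was 67.6%, in contig38005. By unique reads its Reg+ ratio was 0.672 and the Reg- ratio of contig91566 was 0.678, both past the limit of 0.667. On the deposited scale per length, which divides by length and library total (RPKM), the mean levels ran from 0.716 RPKM in contig52198 to 56.3 RPKM in contig110691.

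Most abundant by CPM was contig11169 (785 nt). In Reg+ tissue it had 35.9, 9.03 and 21.9 CPM after amputation and 44.4, 39.2 and 41.8 CPM uncut. In Reg- tissue it had 33.4, 19.9 and 21.6 CPM after amputation and 99.5, 49.1 and 57.3 CPM uncut. All 6 amputated libraries lay below all 6 uncut ones, from 9.03 to 35.9 against 39.2 to 99.5 CPM, with the widest spread in the Reg+ amputated group. The ratios of means were 0.533 in Reg+ and 0.364 in Reg- tissue. Without Reg+ amputated replicate 2 its Reg+ ratio was 0.691, past the limit of 0.667.

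The per-length leader contig110691 (225 nt) had 7.48, 8.04 and 9.50 CPM in Reg+ amputated against 13.3, 12.2 and 14.4 CPM in Reg+ uncut tissue. It had 10.1, 13.7 and 10.5 CPM in Reg- amputated against 17.2, 17.2 and 18.4 CPM in Reg- uncut tissue. The closest libraries had 364 and 266 reads in Reg+ and 491 and 369 reads in Reg- tissue. It was the single member of either set whose counting intervals were apart in both regions. Reg- amputated replicate 2 overlapped the Reg+ uncut libraries, so the 6 amputated libraries were not below all 6 uncut ones.

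In contig8520 (1344 nt) the Reg+ levels were 6.08, 6.20 and 6.25 CPM after amputation and 10.7, 14.9 and 7.30 CPM uncut. In Reg- tissue they were 5.38, 5.32 and 4.08 CPM amputated and 10.2, 11.04 and 8.78 CPM uncut. The amputated libraries lay within 4.08 to 6.25 CPM whatever the region, below every uncut library. Its ratios of means were 0.563 and 0.492, and the Reg+ ratio was 0.684, past the limit, without Reg+ uncut replicate 2.

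The abundant members also included contig62497 and contig7908, with ratios of means of 0.651 and 0.641, and of 0.559 and 0.618. Contig62497 (592 nt) had 3.42, 2.63 and 3.86 CPM in Reg+ amputated, 6.28, 4.76 and 4.17 CPM in its uncut counterpart, 4.78, 4.32 and 2.75 CPM in Reg- amputated and 7.17, 5.202 and 6.13 CPM in uncut Reg- tissue. Contig7908 (1632 nt) had 1.82, 1.68 and 2.14 CPM, 4.16, 2.85 and 3.09 CPM, 2.59, 1.86 and 3.08 CPM, and 3.85, 4.20 and 4.14 CPM in the same order of groups. In both, the highest Reg- amputated library reached the lowest Reg+ uncut one. Uniquely assigned reads were 88.7% of contig62497 and 84.8% of contig7908, and by unique reads the Reg+ ratio of contig62497 was 0.671, past the limit.

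At least 2-fold lower in both regions were 4 of 21 falling contigs, among them contig94072 (741 nt). It had 0.352, 0.492 and 0.536 CPM in Reg+ amputated against 2.34, 2.52 and 1.54 CPM in Reg+ uncut tissue. It had 0.830, 0.596 and 0.486 CPM in Reg- amputated against 1.22, 1.11 and 1.99 CPM in Reg- uncut tissue. No amputated library reached an uncut one of either region. The means were 4.63-fold lower in Reg+ and 2.26-fold lower in Reg- tissue, and the ratio stayed between 0.189 and 0.241 in Reg+ and between 0.376 and 0.547 in Reg- tissue whichever library was left out. Its 12 libraries held 392 reads.

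The other 3 of these 4 had few reads in most libraries. In Reg+ tissue their ratios moved by over 1.5 times without 1 uncut pool, and by 17.4 times in contig114618. Each reached the mean of 1 CPM only with that pool and left the falling set without it. Contig114618 (313 nt) had 377 of its 423 reads in Reg+ uncut replicate 3, at 17.1 CPM. The other Reg+ uncut libraries had 0.11 and 0.57 CPM and the Reg+ amputated ones 0.096, 0 and 0.071 CPM. Its Reg+ ratio was 0.0094, and 0.164 without that library. In Reg- tissue the 1 read after amputation stood against 1, 2 and 17 reads in the uncut libraries, a ratio of summed reads with a 95% exact (Clopper-Pearson) interval of 0.0012 to 0.31. The Reg- ratio of means was 0.0478, and 0.217 without Reg- uncut replicate 4. The closest amputated and uncut libraries held 3 and 3 reads in Reg+ and 1 and 1 in Reg- tissue. Their order thus came from the library totals.

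Contig12492 (537 nt) had 13, 0 and 0 reads in Reg+ amputated and 22, 228 and 21 reads in Reg+ uncut tissue, and 2, 0 and 1 against 69, 4 and 15 reads in Reg- tissue. It was high in Reg+ uncut replicate 2 and, less so, in Reg- uncut replicate 1. With 3 reads after amputation, the Reg- ratio of summed reads had a counting interval of 0.0068 to 0.102. Its ratios of means were 0.0442 in Reg+ and 0.0322 in Reg- tissue. They became 0.158 without Reg+ uncut replicate 2 and 0.1003 without Reg- uncut replicate 1, and the Reg+ ratio became 0 without Reg+ amputated replicate 1. Contig3996 (470 nt) had 9.13, 2.95 and 0.544 CPM in Reg+ uncut tissue and 0.48, 0.123 and 0.107 CPM after amputation. Its Reg- levels were 0.531, 0.223 and 0.162 CPM amputated and 1.43, 0.604 and 1.22 CPM uncut. The Reg+ ratio of contig3996 was 0.0562, and 0.135 without Reg+ uncut replicate 1. Its Reg- ratio was 0.281, and 0.178 without Reg- amputated replicate 1.

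**Figure D4:**
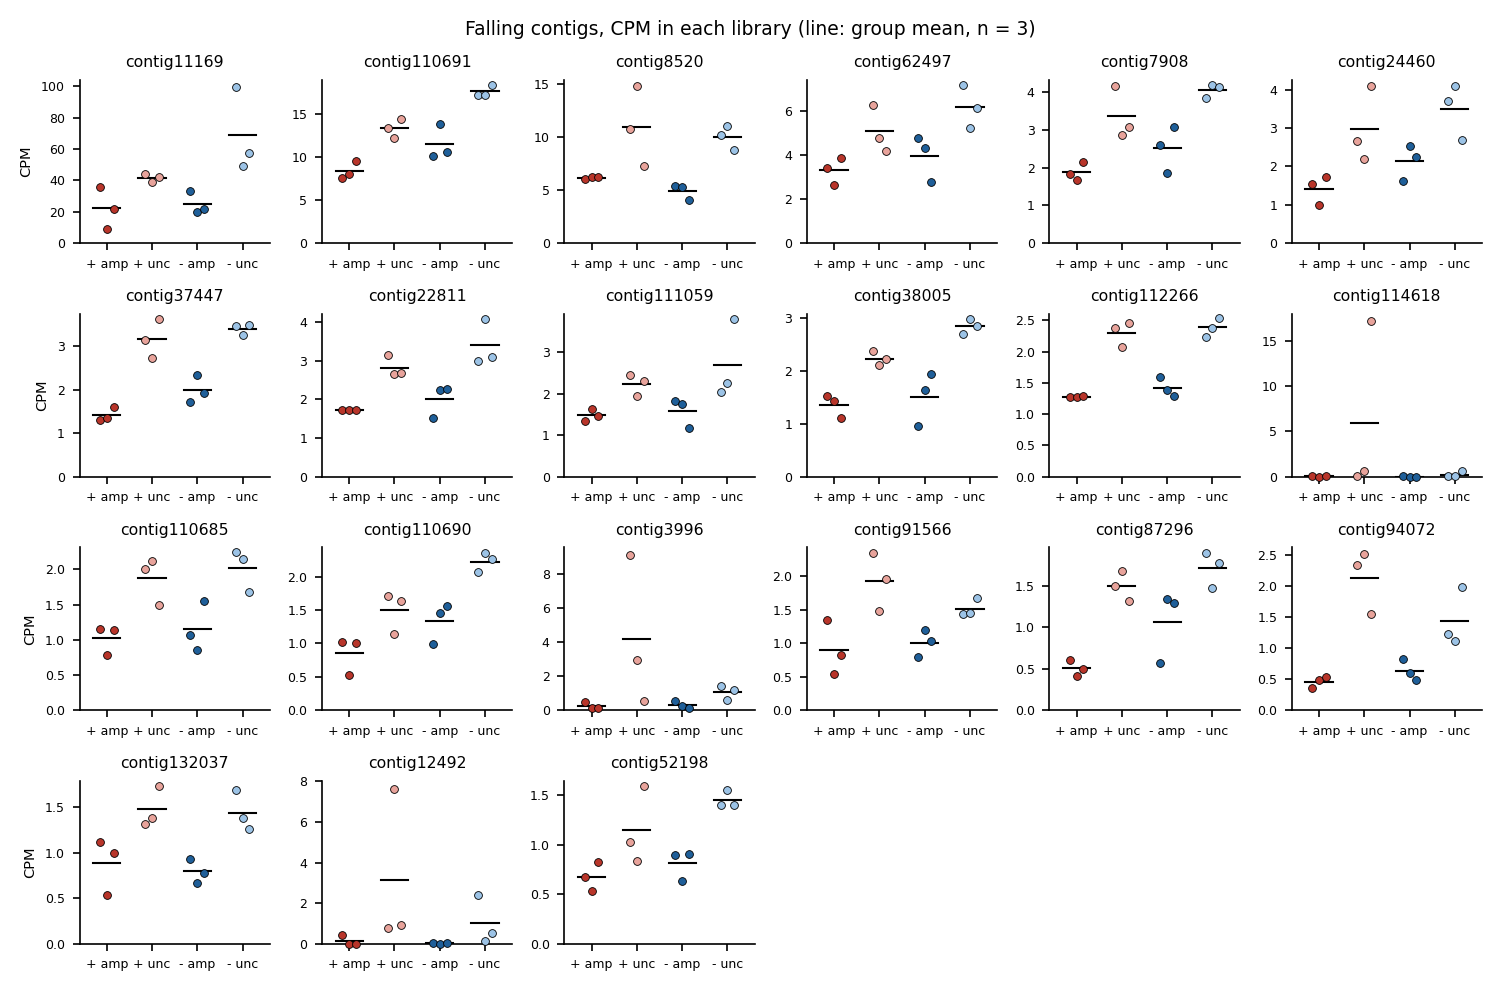
CPM of the 21 falling contigs in each library (points, replicates in order of number) with the group mean (line, n = 3), for Reg+ amputated (+ amp), Reg+ uncut (+ unc), Reg- amputated (- amp) and Reg- uncut (- unc) tissue; each vertical axis starts at 0. Most panels show 2 low amputated and 2 high uncut groups, while contig114618, contig3996 and contig12492 are high in 1 or 2 uncut libraries.

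The threshold was met most narrowly by contig91566 (234 nt), with ratios of 0.468 in Reg+ and 0.665 in Reg- tissue, and contig111059 (420 nt), with 0.663 and 0.587. Just outside lay contig17456 (2003 nt, mean 3.12 CPM), at 0.661 and 0.668, and contig146799 (290 nt, mean 1.07 CPM), at 0.538 and 0.671.

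The other 10 falling contigs were 201 to 1832 nt long with mean levels of 1.02 to 2.50 CPM. Their ratios ran from 0.338 to 0.61 in Reg+ and from 0.532 to 0.622 in Reg- tissue. Singled out after their values were seen are 2 of these with tight groups. Contig37447 (1748 nt) had 1.31, 1.35 and 1.61 CPM in Reg+ amputated, 3.14, 2.72 and 3.63 CPM in its uncut counterpart, 1.73, 2.35 and 1.91 CPM in Reg- amputated and 3.46, 3.26 and 3.48 CPM in uncut Reg- tissue. Contig112266 (219 nt) had 1.28, 1.27 and 1.29 CPM, 2.37, 2.08 and 2.45 CPM, 1.59, 1.38 and 1.30 CPM, and 2.24, 2.38 and 2.54 CPM in the same order. In both contigs the amputated and uncut libraries did not overlap over the 2 regions. Each Reg+ amputated value of contig112266 rested on 31 to 40 reads.

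In all, 11 of 21 falling contigs had all 6 amputated libraries below all 6 uncut ones. So did 78 of the 216 contigs lower in both regions with no overlap, and 0.19% of the 41058 contigs. The rule fixed this order within each region, so only the order across regions was free. An order of all 6 against all 6 does not depend on which uncut group is taken as the control. Set against the uncut tissue of the other region, the rising means were 1.58 to 2.47 times Reg- uncut in Reg+ amputated tissue, and 1.38 to 2.22 times Reg+ uncut in Reg- amputated tissue. For the falling set these ratios were 0.135 to 0.617 and 0.0019 to 0.891. Both amputated group means thus lay on the same side of both uncut group means in 28 of 28 contigs. This was partly set by the rule.

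The falling contigs shared the libraries in which they were high less than the rising contigs did. The median correlation of deviations from group means was 0.066 over 210 pairs, with a range of -0.83 to 0.928. No library was the highest of its group in more than 11 of 21 contigs. Reg+ amputated replicate 2 was the lowest of its group in 13, and it also had the lowest scaling factor of all libraries (0.9075).

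In the falling set the counting intervals of the closest libraries were apart in 3 of 21 contigs in Reg+ and in 3 of 21 in Reg- tissue. They were apart in 1 contig in both. Overlap in the others does not show that the counts differed by counting error alone. The ratio of this pair ran from 1.02 to 2.88.

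A model fitted to all contigs gave a broader view of the amputation contrasts, which chose the members and are given as a description. By edgeR's quasi-likelihood test with Benjamini-Hochberg adjustment, 2.09% of 62408 contigs were called higher and 4.35% lower in Reg+ tissue, and 1.62% higher and 0.995% lower in Reg- tissue. Among the rising set 0 of 7 were called in Reg+ and 0 of 7 in Reg- tissue, with 5 and 4 at an unadjusted p under 0.05, as were 25.1% and 10.4% of all tested contigs. Among the falling set 6 of 21 were called in Reg+ and 2 of 21 in Reg- tissue, with 18 and 18 at an unadjusted p under 0.05. Those counts, too, stand beside 25.1% and 10.4%. The 2 called in both regions were contig37447 (adjusted p by edgeR of 0.00723 in Reg+ and 0.0443 in Reg-) and contig112266 (0.0218 and 0.0281). Their log2 fold changes were -1.06 and -0.80 for contig37447 and -0.75 and -0.77 for contig112266.

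Averaged over both regions, amputation gave 0 called contigs in either direction by edgeR, with 8.53% of 62408 contigs at an unadjusted p under 0.05 and a smallest adjusted p of 0.108. DESeq2 called 29 contigs higher (0.0465%) and 166 lower (0.266%), among them 2 rising and 12 falling contigs. The members' adjusted p by edgeR ran from 0.333 to 0.443. Their unadjusted p values, all under 0.01, were favoured by the choice of members.

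The difference between the Reg+ and Reg- responses was called in 3.01% of contigs with the higher response in Reg+ and 4.42% with the higher in Reg-, and in 0 of 28 members by edgeR, none of which had an unadjusted p under 0.05, as 23.6% of all tested contigs had. The smallest adjusted p among members was 0.26. The choice of same-direction contigs favoured this.

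The average difference between Reg+ and Reg- tissue was not used to choose the members and was tested. The rule did use the spread within groups, which enters this test, so the test was not free of the choice. No member passed the adjusted threshold for region. By edgeR 0 of 28 were called, as were 0% of all 62408 contigs, and DESeq2 also called 0 of 28 beside 25 contigs higher in Reg+ (0.0401%) and 11 higher in Reg- (0.0176%). The adjusted p was 1 for each member by edgeR. At an unadjusted p under 0.05 were 5 of 28 members (17.9%), all falling, against 4.75% of all tested contigs and 9.62% of the 1621 contigs with opposite directions. The median spread within groups, as an SD of log2(CPM + 0.5), was 0.38 in the rising and 0.253 in the falling set, against 0.225 over the 41058 contigs.

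The contigs behind this count were lower in Reg+ tissue. Contig110691 had a log2 difference (Reg+ minus Reg-) of -0.42 with a standard error of 0.11, contig110690 of -0.60 (0.18), contig87296 of -0.61 (0.22), contig7908 of -0.33 (0.13) and contig37447 of -0.29 (0.13). None passed the adjusted threshold by edgeR. In contig110691 the uncut libraries stood at 17.2 to 18.4 CPM in Reg- and 12.2 to 14.4 CPM in Reg+ tissue, and did not overlap. Over the falling set the median log2 difference was -0.23, with 14 of 21 contigs lower in Reg+, and over the rising set it was 0.16, with 2 of 7 lower in Reg+. Over all tested contigs the median was -0.02, with 33519 of 62408 lower in Reg+. The widest values, 3.31 in contig114618 and 1.83 in contig12492, had standard errors of 2.03 and 1.23 and rested on the few pools named above.

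**Figure D5:**
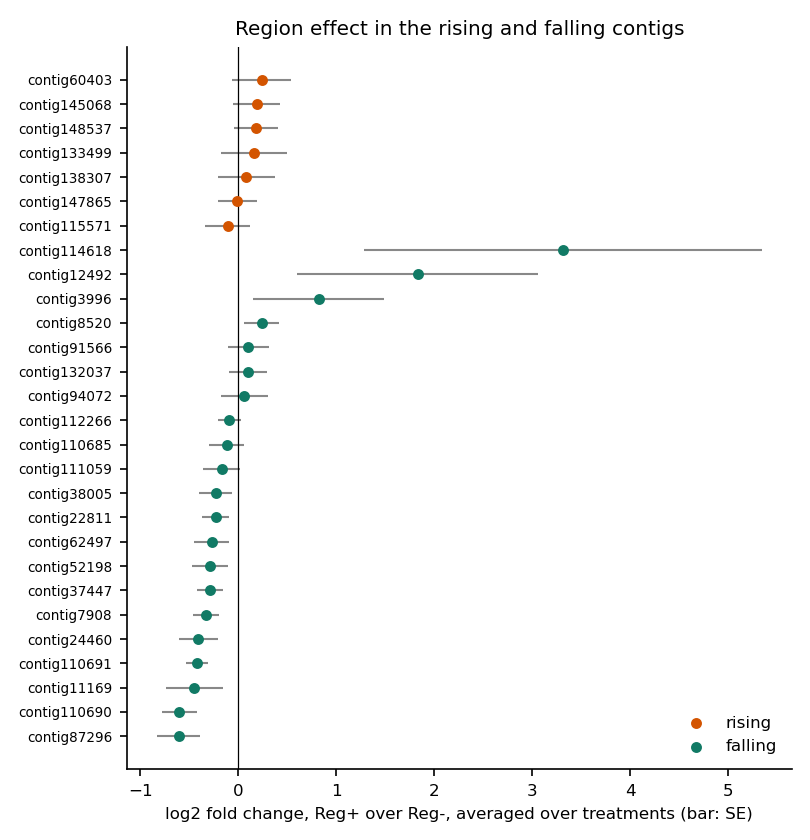
Log2 fold change of Reg+ over Reg- tissue averaged over amputated and uncut libraries (edgeR, bar: standard error) for the 7 rising and 21 falling contigs. None was called, most values lie within 0.61 of 0, and contig114618 and contig12492 have the widest bars.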

How the data were processed

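Per the labels' protocols, total RNA was made into TruSeq libraries and sequenced on an Illumina HiSeq. The deposited columns are, per the file headers, contig lengths, read counts (unique and total) and RPKM. How reads were aligned, counted and shared between contigs is not given in the sources used here. RPKM values as deposited equal total reads per length and column total to within 0.0078 RPKM, and were used only to compare levels between contigs.

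CPM were computed from total reads and column sums. The members, the comparison sets and the rules were chosen with earlier results of these data known. Named are all contigs of a set of 12 or fewer, and otherwise the 6 with the largest change in the weaker region, the 5 most abundant, up to 3 with a called region effect (there were none) and those nearest the 1.5-fold threshold on either side.

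Counts were fitted with edgeR 4.0.16 (R 4.3.3) on 62408 contigs kept by filterByExpr, with TMM factors of 0.9075 to 1.092 and one mean per group over 12 libraries. Contrasts were tested by quasi-likelihood F, two-sided, and called at an adjusted p under 0.05. A standard error is the log2 fold change over the square root of F. DESeq2 1.42.0 was an alternative, with 3669 contigs left without an adjusted p for the amputation effect. Other settings were the scaling, unique reads, the thresholds, the filter, a replicate term and leaving out each library.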

Additional observations from a re-analysis of the deposited data

How the results depend on the processing

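The size of both sets depended on the thresholds and the libraries, and the cause of each change was not tested. The rising set had 14 contigs at a mean of at least 0.5 CPM, 0 at 5 CPM, 0 at a ratio of 2 and 79 with no ratio minimum. The falling set had 38, 3, 4 and 216 in the same order. Requiring all 6 amputated libraries beyond all 6 uncut ones, an alternative chosen after seeing the data, left 2 and 11. Leaving out each library in turn gave 5 to 22 rising and 21 to 57 falling contigs, with fewer libraries to separate. The rising count moved by over 1.5 times without Reg+ amputated replicate 1 (16), Reg+ amputated replicate 3 (16), Reg+ uncut replicate 3 (14), Reg- amputated replicate 1 (22), Reg- amputated replicate 3 (21) or Reg- uncut replicate 4 (16). The falling count did so without Reg+ amputated replicate 3 (33), Reg- amputated replicates 1, 2 or 3 (57, 44 and 43) or Reg- uncut replicates 1 or 3 (39 and 52). Without Reg- amputated replicate 3, which stood apart, 7 rising and 19 falling members were kept. Over all left-out libraries 4 to 7 rising and 16 to 20 falling members were kept. Unique reads gave 5 and 19 contigs (4 and 18 of them members), TMM-scaled sizes 5 and 25 (3 and 19) and DESeq2 size factors 7 and 17 (3 and 17). Members that passed under all 3 of these and all 12 left-out libraries were 3 of 7 rising contigs (contig138307, contig145068 and contig60403) and 5 of 21 falling ones (contig110685, contig112266, contig22811, contig37447 and contig94072). No member's ratio changed direction. For the left-out libraries the lack of overlap asked by the rule fixed this in advance, and the 1.5-fold minimum favoured it under the other scalings.

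The region effect was called for 0 of 28 members under every setting run. The averaged amputation effect gave 0 calls by edgeR without each library, and 1 without the filter on low counts. By DESeq2's Wald test 195 contigs were called, of which 14 were members.

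With a replicate block, 0 members had a called region effect and 0 contigs a called amputation effect. Same-numbered libraries of different groups correlated in their deviations at -0.096 to 0.577 over 15 pairs, with a median of 0.145 against -0.053 over 39 pairs of different numbers, and 7 of 12 libraries were closest to one of their own number. The labels do not say what a number marks, and not every same-numbered pair correlated positively. Whether libraries of one number share a batch was not tested. The fit without the block was kept as the main one.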

Other observations

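Contigs at least 4-fold lower by group means in both regions mostly had their highest level in 1 of 2 uncut pools. There were 30 with a mean of at least 1 CPM, of which 2 (contig114618 and contig12492) are falling contigs and 28 had overlapping groups in a region. Of the 30, 22 were highest in Reg+ uncut replicate 2, 7 in Reg- uncut replicate 1 and 1 in Reg+ uncut replicate 3. In 17 of them the highest library held over 50% of the CPM summed over the 12 libraries. The most abundant was contig40301 (630 nt, mean 9.53 CPM), with 60.9 CPM in Reg+ uncut replicate 2, or 53.2% of its sum. At least 4-fold higher in both regions were 2 contigs, both with overlapping groups. These contigs were chosen after the data were seen. The median level of the 30 lower ones was 1.25 CPM, with a median of 51.3% of the sum in the highest library. The mean of 1 CPM and the 4-fold limit thus favoured contigs high in an uncut pool. What set these pools apart was not tested.

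Contigs outside both sets also separated all amputated from all uncut libraries. Their median level, members included, was 6.52 CPM for those higher and 6.67 CPM for those lower after amputation, and both named here were picked from the abundant end. Above in all 6 amputated libraries were 25 contigs, 23 of them outside the rising set, with a median ratio of 1.21. Below were 78, of which 67 were outside the falling set, with a median ratio of 0.748. Contig13644 (1634 nt) had 146.0 ± 20.7 CPM in amputated and 187.3 ± 10.3 CPM in uncut libraries (SD, n = 6 each). Contig17369 (832 nt) had 50.8 ± 10.3 CPM in amputated and 36.8 ± 3.55 CPM in uncut libraries. Its highest amputated library had 71.3 CPM, and its ratios were 1.52 in Reg+ and 1.24 in Reg- tissue. The more abundant contig142138 (lower, ratio 0.921) and contig2701 (higher, ratio 1.10) changed less than these. The smallest adjusted p of the averaged amputation effect over all tested contigs was 0.108 by edgeR, so none of these was called.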
